A study of Drosophila melanogaster with 2 samples.

Results

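Mitochondrial ribosomal proteins are the nucleus-encoded proteins of the ribosome inside mitochondria, named mRpL for the large and mRpS for the small subunit. All probes whose single current gene symbol starts with mRpL or mRpS were taken, without regard to their values. They were 70 probes of 70 genes, 45 of the large and 25 of the small subunit, among 11864 genes with a probe of a single symbol, and each gene had 1 probe. PolyA RNA of Drosophila melanogaster larvae from the cross GMR X GFP-dASF/SF2 was set against RNA of control larvae from GMR X GFP-NLS on 2 two-colour arrays. The dASF/SF2 RNA was labelled with Cy5 on array 1 and with Cy3 on array 2, and the control RNA carried the other dye each time. Both crosses share GMR, an enhancer that drives expression in the developing eye, and a GFP fusion. The fusion partner is the splicing factor dASF/SF2, an SR protein, in one cross and a nuclear localisation signal in the control. The labels give no larval age, no number of larvae and no dissected tissue, and they do not say whether the arrays came from separate extracts. The p-values therefore cover only how far these 2 arrays differ, and that difference may be technical.

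Mitochondrial ribosomes make the few proteins that mitochondrial DNA encodes, all of them subunits of the oxidative phosphorylation complexes in animals. Their proteins are made in the cytosol and imported. The small subunit holds the mRNA and reads its codons, and the large subunit joins the amino acids and releases the new chain through a tunnel towards the inner membrane. Some of the proteins have bacterial homologues, while others were added in the evolution of mitochondria. In flies, loss of single mitochondrial ribosomal proteins is known to slow growth, and the mutant of tko, the S12 protein, is paralysed by mechanical shock.

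The deposited value of a probe on an array is a log ratio of the 2 dyes, and neither its log base nor its numerator is stated in the sources used here. It was read as Cy5 over Cy3, the sign of array 2 was turned, and the median of each array was subtracted. Above 0 then stands for more RNA in dASF/SF2 larvae if the numerator is Cy5, and less if it is Cy3, so no value is called up or down here, and directions are named as positive or negative. All values below are on this deposited log scale, after turning and centring unless the deposited sign is named. Values were present on both arrays for 69 of the 70 genes, 98.6% of them. The share was 73.8% over all probes, these genes included, without the 960 repeated unnamed features described below. The gene without a value on either array was mRpL37, a mitochondria-specific protein of the large subunit. Of the 73 genes so named in the reference table, mRpL34, mRpL53 and mRpS34 had no probe of their own. A probe that lists mRpS34 together with CG33257 was not counted.

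The mitochondrial ribosomal protein genes lay close to the array medians when both arrays were combined, and no gene was called. Limma gave 0 of 69 genes at an adjusted p under 0.05, with a background of 0% of the 10912 probes tested. The lowest adjusted p of the 69 was 0.944, for mRpS18A. At an unadjusted p under 0.05, limma counted 0 of the 69 genes and 6.69% of all probes. The mean of both arrays was within 0.1 of 0 for 65 genes, or 94.2% of the 69, and for 61.2% of all probes. The means leaned to the negative side, with 54 of the 69 below 0, beside 48.5% of all probes. With array 2 not turned, a reading taken up below, 54 were also below 0, beside 50.8% of all probes. The SD of the turned means across genes was 0.0463 for the ribosomal proteins and 0.158 for all probes. The 95% intervals of all 69 genes included 0 and reached between 0.24 and 0.437 to each side of the mean. Smaller differences between the crosses were thus not detectable with 2 arrays, even without adjustment for the number of probes. Larger ones could also go uncalled after adjustment. For mTerf3, treated below, the mean was 0.879 and the limma adjusted p 0.422. The gene encoding dASF/SF2 itself, SF2, stood at -0.031 and -0.128 on arrays 1 and 2, with a limma adjusted p of 0.999. Whether the SF2 probe can also detect the transgene is not known here, so its value checks no label.

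**Figure D1:**
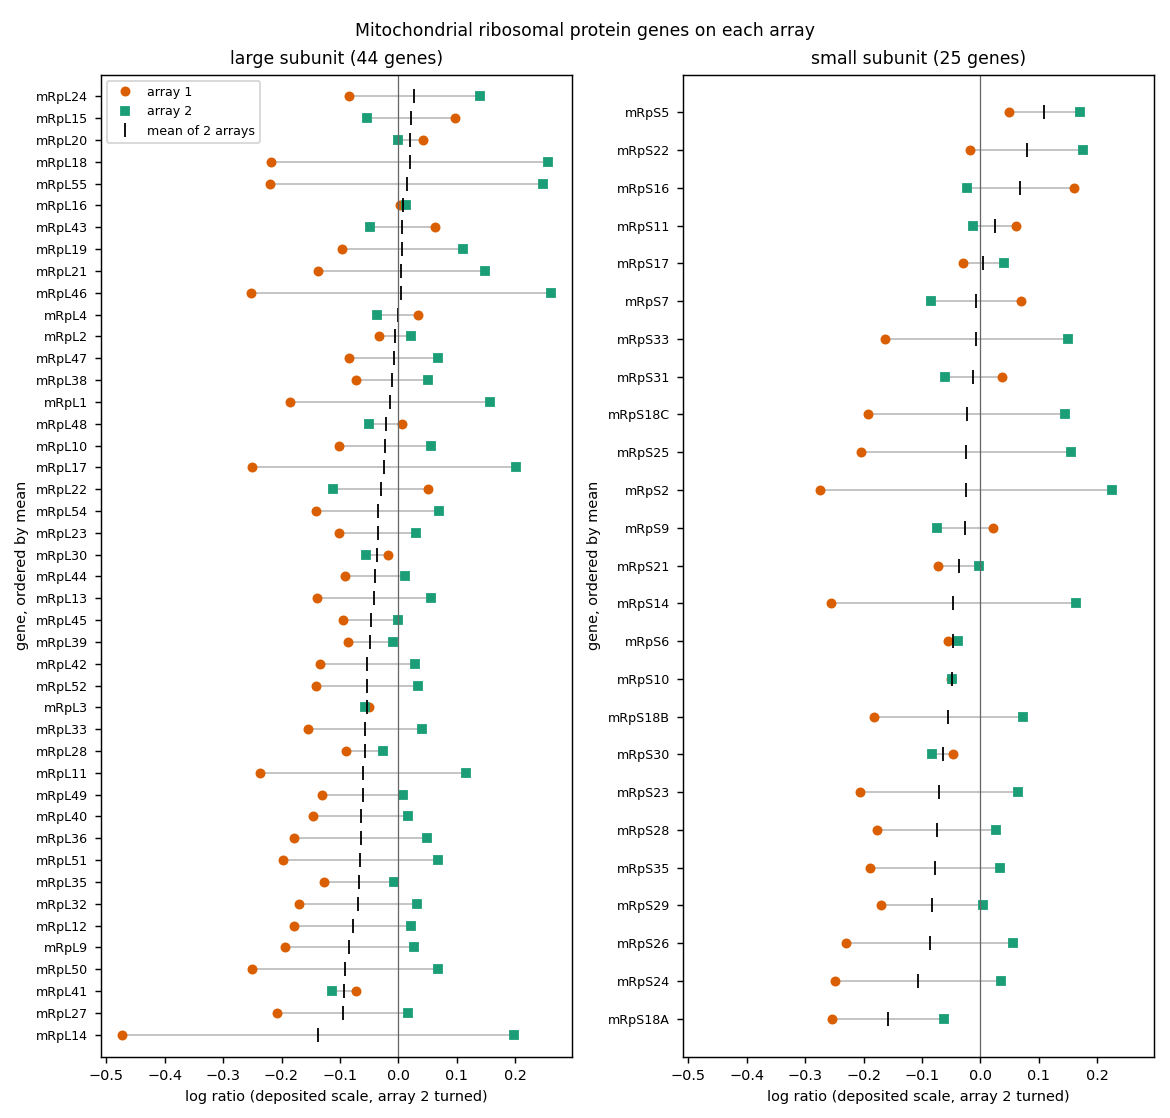
Log ratio on the deposited scale (horizontal axis, array 2 turned) of the 44 large and 25 small subunit genes with values, ordered by mean (vertical axis). Orange circles are array 1, green squares array 2 and black ticks their mean. For 44 of the 69 genes the array 1 value is negative and the array 2 value positive, and the means lie between -0.1585 and 0.1095.

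The arrays placed most of these genes on opposite sides. Of the 69 genes, 44 were negative on array 1 and positive on array 2, a pattern that 26.4% of all probes had. A further 11 genes were positive on array 1 and negative on array 2, against 23.9% of all probes. Both arrays were negative for 11 genes (23.1% of all probes) and positive for 2, mRpS5 and mRpL16 (26.1% of all probes). The last gene, mRpL45, stood at 0 on array 2. The human counterpart of mRpL45 anchors the ribosome to the inner membrane. In all, 55 of the 69 genes, or 79.7%, lay on opposite sides, beside 50.4% of all probes.

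The medians of the 69 genes were -0.13 on array 1 and 0.03 on array 2, and those of all probes were 0.001 and 0.009. On array 1, 56 genes were negative, 81.2% of the 69, against 49.7% of all probes. On array 2, 46 genes were positive, 66.7% of the 69, against 52.6% of all probes. The wider departure was thus on array 1, where the dASF/SF2 RNA carried Cy5. The SD between the arrays had a median of 0.124 for these genes and of 0.107 for all probes.

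In the deposited sign, before turning, these opposite sides are the same sign on both arrays. Across the 69 genes the deposited values of array 1 and array 2 had a Pearson correlation of 0.599 and a Spearman correlation of 0.641. Over all 10912 probes the correlations were -0.0244 and -0.0079. The genes share both arrays, both RNA preparations and the places of their probes, and they are not independent replicates, so these are descriptions. Without mRpL14, the gene farthest from the others, the correlations were 0.575 and 0.626 over 68 genes. The large subunit genes had a Pearson correlation of 0.707 (n = 44) and the small subunit genes of 0.445 (n = 25).

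**Figure D2:**
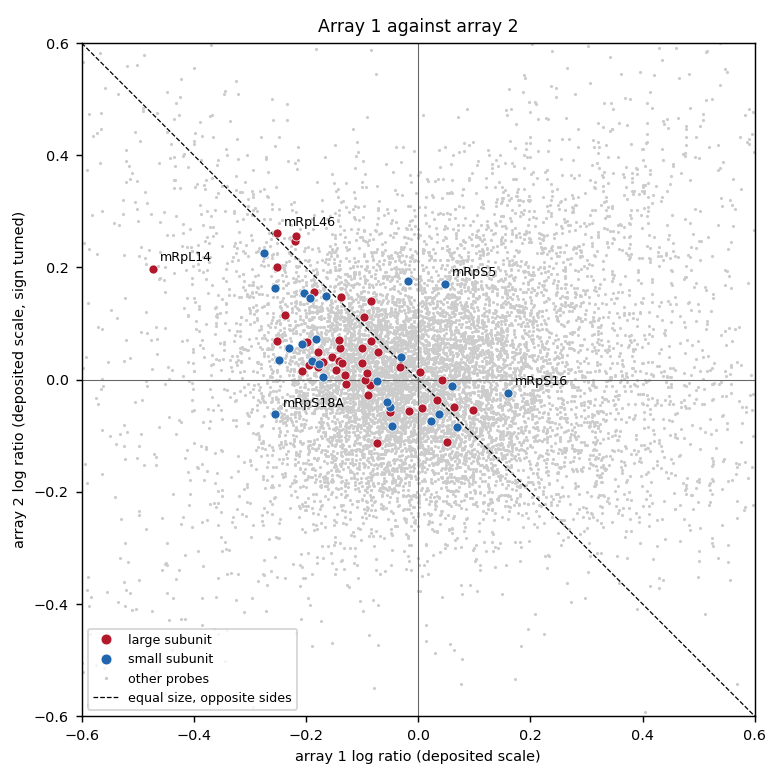
Array 1 (horizontal axis) against array 2 with its sign turned (vertical axis), both as log ratios on the deposited scale. Red points are large subunit genes, blue points small subunit genes and grey points the other probes tested; the axes end at 0.6 and leave out 392 probes. The dashed line marks equal size on opposite sides. Of the 69 genes, 44 lie in the upper left, and 54 have a mean below 0 and so lie below this line. mRpL14 lies farthest to the left at -0.473.

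The deposited values could also already run by genotype, in which case array 2 is not turned. Which reading holds is not stated, and it matters for these genes. Without turning, 44 genes were negative on both arrays, 11 positive on both and 13 on opposite sides, and the median of the means was -0.087 against -0.0375 after turning. Limma then counted 3 of the 69 genes at an unadjusted p under 0.05, all on the negative side. This share was no higher than the 4.88% of all probes. The 3 genes were mRpL14, mRpL46 and mRpS2, and the lowest adjusted p by limma was 0.981. From the values of these genes alone, a ratio that runs with the dye and one that runs with the genotype cannot be told apart. The marker probes given below also differed between the readings. After turning, 16 of 18 muscle probes were positive on both arrays and 12 of 17 midgut probes negative on both. Their deposited values had Pearson correlations of -0.704 for muscle and -0.765 for midgut. Which reading holds was not tested.

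The probe numbers fall into 24 blocks of equal size, and the values differed between blocks. Block medians over all probes ranged from -0.104 to 0.124 on array 1 and from -0.098 to 0.1 on array 2 in the deposited sign, with a Pearson correlation of 0.843 across the 24 blocks. The ribosomal protein genes lay in 23 of the 24 blocks. Block 15 held the most, 8 genes, and blocks 2 and 12 held 6 each.

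All 8 genes of block 15 were negative on array 1 and positive on array 2. Their medians were -0.1945 and 0.1555, with array 2 turned. The medians of block 15 as a whole lay on the same sides, at -0.076 on array 1 and, before turning, at -0.089 on array 2. The share of all block 15 probes with this pattern was not counted. The 8 genes are mRpL1, mRpL17, mRpL19, mRpL24, mRpL54, mRpL55, mRpS2 and mRpS25, named here for their block after their values were seen. After each array was centred within its blocks, 38 of the 69 genes were negative on array 1 and positive on array 2, beside 24.9% of all probes, and 46 were on opposite sides, beside 47.2%. Another 21 genes were then negative on both arrays, among them mRpL54 of block 15, at -0.062 and -0.0195. The deposited values of the 69 genes had a Pearson correlation of 0.613 after this centring.

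**Figure D3:**
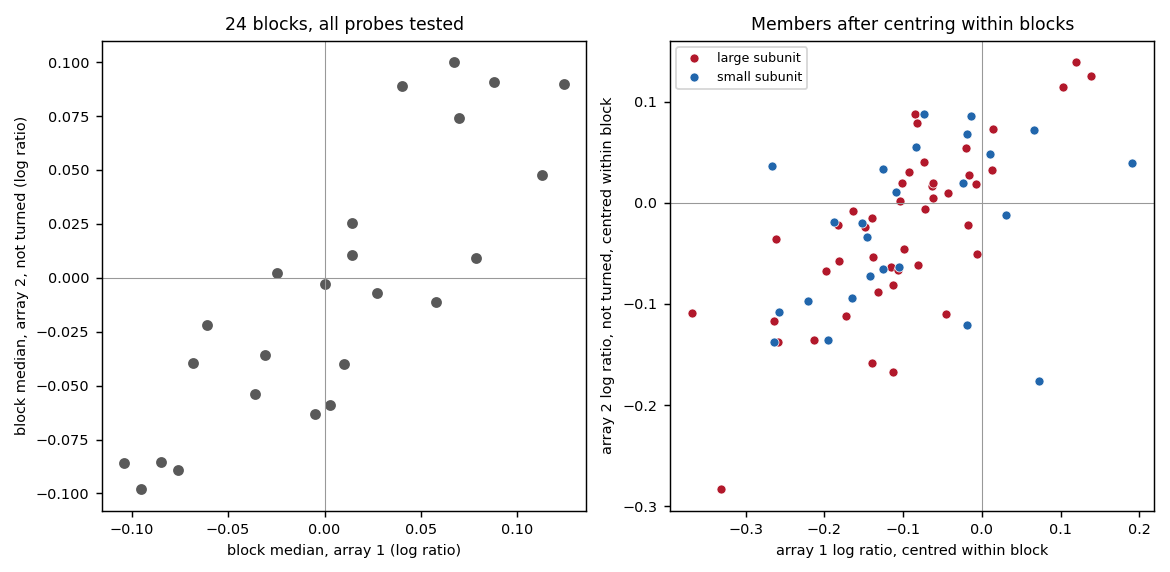
Left, median log ratio of all probes tested in each of the 24 blocks of probe numbers, array 1 (horizontal axis) against array 2 in the deposited sign (vertical axis). Right, the 69 ribosomal protein genes after centring within blocks, on the same axes, with large subunit genes in red and small subunit genes in blue. Block medians run from lower left to upper right, and so do the genes after the block medians are taken off.

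The large and the small subunit were compared on each array. The large subunit median was -0.129 on array 1 (44 genes, quartiles -0.18 and -0.0727), against -0.164 for the small subunit (25 genes, quartiles -0.204 and -0.018). On array 2 the large subunit median was 0.0295 (quartiles -0.0025 and 0.0685), against 0.034 for the small subunit (quartiles -0.039 and 0.145). Large minus small was therefore 0.035 on array 1 and -0.0045 on array 2. Taken from means in place of medians, the difference was -0.0142 and 0.0054, so its sign on each array depended on the summary. The values of the subunits overlapped over most of their range, with an SD across genes on array 1 of 0.105 for the large and 0.125 for the small subunit. No test was made, since the smallest two-sided exact p with 2 arrays is 0.5.

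In the large subunit, 30 of 44 genes (68.2%) were negative on array 1 and positive on array 2, 6 the other way, 6 negative on both and 1 positive on both. In the small subunit, 14 of 25 (56%) were negative on array 1 and positive on array 2, 5 the other way, 5 negative on both and 1 positive on both. The opposite-sided share was 81.8% for the large and 76% for the small subunit. The proteins mRpS18A and mRpS30 belong to the large subunit in human mitochondria despite their names. Moved there, they left the medians at -0.129 and 0.0275 for the large subunit, against -0.164 and 0.035 for the small subunit.

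**Figure D4:**
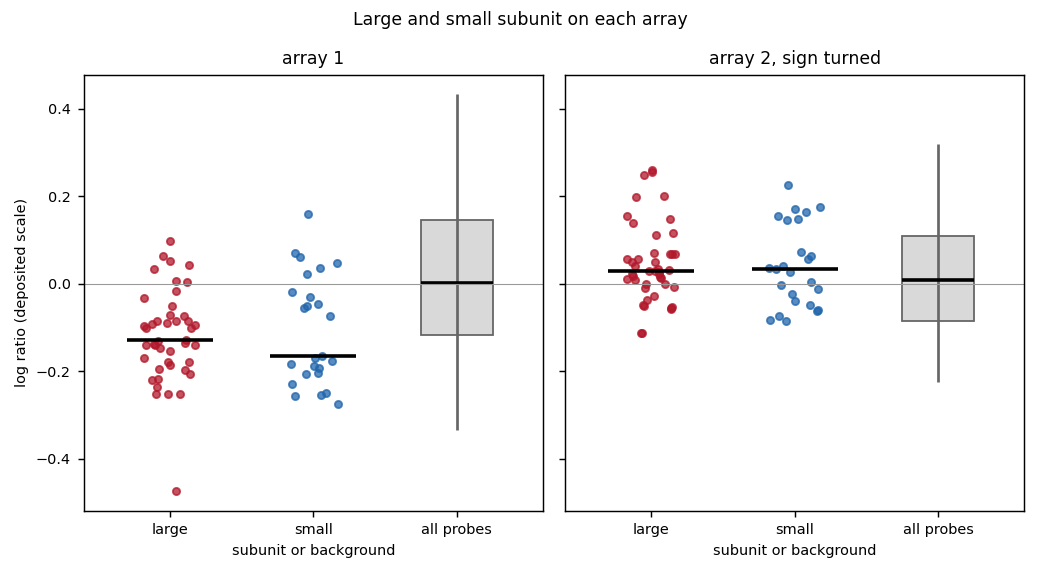
Log ratio on the deposited scale (vertical axis) of the large subunit genes (red), the small subunit genes (blue) and all probes tested (grey box from the lower to the upper quartile, whiskers from the 5th to the 95th percentile), array 1 left and array 2 with its sign turned right. Each point is 1 gene and black bars are medians. Both subunits lie lower than all probes on array 1, at -0.129 and -0.164, and near them on array 2, at 0.0295 and 0.034.

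Of the large subunit, mRpL14 had the widest gap between the arrays before centring within blocks. After that centring it stood at -0.368 and 0.109, and mRpL46 had a wider gap, at -0.331 and 0.283. The bacterial homologue of mRpL14, L14, sits where the subunits meet. Without centring within blocks, mRpL14 stood at -0.473 on array 1 and at 0.198 on array 2, a mean of -0.1375 ± 0.474 (SD, n = 2), with a limma adjusted p of 0.999. The array 1 value was the lowest of all 69 genes, and the sides were opposite. In the deposited sign mRpL14 was negative on both arrays, with a mean of -0.3355 ± 0.194 (SD, n = 2), an unadjusted p of 0.035 by limma and an adjusted p of 0.981.

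Another 4 large subunit genes had wide gaps of the same direction. mRpL46, a mitochondria-specific protein, stood at -0.252 and 0.261 on arrays 1 and 2, nearly equal in size. mRpL18, whose bacterial homologue binds 5S rRNA, stood at -0.218 and 0.256. mRpL55, also mitochondria-specific, stood at -0.219 and 0.248, and mRpL17, whose bacterial homologue lies at the exit of the tunnel, at -0.251 and 0.201. The means of these 4 genes lay between -0.025 and 0.019, against SDs between the arrays of 0.32 to 0.363. Part of some gaps was shared with the block. After centring within blocks mRpL18 stood at -0.113 and 0.167, mRpL55 at -0.14 and 0.1585 and mRpL17 at -0.172 and 0.1115.

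The low end of the large subunit held mRpL27, mRpL41, mRpL50 and mRpL9 besides mRpL14. mRpL27, whose bacterial homologue reaches towards the site of peptide bond formation, stood at -0.207 and 0.016 on arrays 1 and 2. mRpL50, a mitochondria-specific protein, stood at -0.251 and 0.068, and mRpL9 at -0.194 and 0.026. These 3 genes were low on array 1 and near the median on array 2. mRpL41, another mitochondria-specific protein, was negative on both arrays, at -0.073 and -0.113, a mean of -0.093 ± 0.0283 (SD, n = 2), but with array 2 not turned its mean was 0.02. Limma gave each of the 4 genes an adjusted p of 0.999, and a mean of -0.093 is a 1.07-fold difference if the log base is 2 and 1.24-fold if it is 10.

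At the high end of the large subunit the means were small. mRpL24 had the highest, 0.0275, from -0.085 on array 1 and 0.14 on array 2. mRpL15 stood at 0.097 and -0.054, and mRpL20, whose bacterial homologue acts early in subunit assembly, at 0.042 and -0.001. For all 3 genes the arrays disagreed in sign. With array 2 not turned, mRpL24 had a mean of -0.1125, and mRpL22 at 0.0815 and mRpL15 at 0.0755 were the highest of the subunit.

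Other functional sites of the large subunit, read from the roles of bacterial homologues, are set out next, with their values known beforehand and no test. The stalk region, which receives the translation factors, is represented by mRpL10, mRpL11 and mRpL12. These stood at -0.101, -0.237 and -0.179 on array 1, and at 0.056, 0.116 and 0.022 on array 2. All were low on array 1 and above the median of all probes on array 2. After centring within blocks this did not hold for mRpL12, which was negative on both arrays, at -0.082 and -0.0785. mRpL11 then stood at -0.14 and 0.0155, and mRpL10 at -0.113 and 0.0815. Around the peptide bond centre, mRpL2 stood at -0.033 and 0.022, mRpL3 at -0.051 and -0.057 and mRpL16 at 0.003 and 0.013 on arrays 1 and 2. These 3 genes were among those with the narrowest gaps between the arrays. mRpL27, named above for the same site, had a wider gap of 0.223, at -0.207 and 0.016, so the site had no common pattern.

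At the exit of the tunnel, mRpL22, mRpL23, mRpL32 and mRpL47 join mRpL17 and mRpL24. mRpL22 differed in direction from the other 5 of this site, with 0.051 on array 1 and -0.112 on array 2. mRpL23 stood at -0.101 and 0.03, mRpL32 at -0.17 and 0.032 and mRpL47 at -0.084 and 0.068. The 6 genes thus covered much of the range of the subunit.

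In the small subunit, mRpS18A had the lowest mean of all 69 genes with array 2 turned. It is one of the S18-like proteins of animal mitochondria, with mRpS18B and mRpS18C. It stood at -0.255 on array 1 and at -0.062 on array 2, a mean of -0.1585 ± 0.136 (SD, n = 2) with a 95% interval of -0.421 to 0.104 and a limma adjusted p of 0.944. Both arrays were negative, and the mean is a 1.12-fold difference for a log base of 2 and 1.44-fold for 10. The related mRpS18B stood at -0.183 and 0.072 and mRpS18C at -0.192 and 0.145, so array 2 put these 2 genes on the other side. With array 2 not turned, the mean of mRpS18A was -0.0965, and the lowest were mRpL14 at -0.3355, mRpL46 at -0.2565 and mRpS2 at -0.2495.

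Low means were also found for mRpS24 and mRpS26. mRpS24 is the counterpart of bacterial S3, which lines the entry of the mRNA, and stood at -0.249 and 0.035 on arrays 1 and 2. mRpS26, a mitochondria-specific protein, stood at -0.23 and 0.056. mRpS2 had nearly opposite values, -0.274 and 0.225, the lowest of the small subunit on array 1 and its highest on array 2. In the deposited sign mRpS2 had a mean of -0.2495 ± 0.0347 (SD, n = 2), with an unadjusted p of 0.0469 and an adjusted p of 0.992 by limma.

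With array 2 turned, the 3 highest means of all 69 genes were those of mRpS5, mRpS22 and mRpS16 of the small subunit. mRpS5, whose bacterial homologue bears on the accuracy of decoding, stood at 0.048 on array 1 and at 0.171 on array 2, a mean of 0.1095 ± 0.087 (SD, n = 2) with a 95% interval of -0.14 to 0.359 and a limma adjusted p of 0.999. It was the only gene of the small subunit that was positive on both arrays, and the size is 1.08-fold if the log base is 2 and 1.29-fold if it is 10. The mitochondria-specific mRpS22 stood at -0.018 and 0.176, a mean of 0.079. mRpS16, known from human respiratory chain disease, stood at 0.16 and -0.023, the highest array 1 value of the 69 genes. mRpS11, whose bacterial homologue lies on the platform near the exit of the mRNA, stood at 0.061 and -0.012. The order depended on the turning: with array 2 not turned, mRpS5 had a mean of -0.0615 and mRpS22 of -0.097, and the highest of the 69 were mRpS16 at 0.0915 and mRpL22 at 0.0815.

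The small subunit proteins tko and bonsai carry other symbols and were not counted among the 69. The tko gene, for the S12 protein of the decoding centre, stood at -0.007 and -0.096 on arrays 1 and 2. The bonsai gene, for the S15 protein, whose mutants are small, stood at -0.103 and 0.032. Their means of -0.0515 and -0.0355 lay within the range of the small subunit.

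Genes with a bacterial homologue (44 genes) had medians of -0.101 and 0.0285 on arrays 1 and 2, against -0.141 and 0.033 for the mitochondria-specific genes (25 genes). Of the homologues, 26 were negative on array 1 and positive on array 2, 59.1%, against 18 of the mitochondria-specific ones, 72%. The classes follow the human nomenclature. The difference between the classes was not tested.

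The other genes of the mitochondrial gene expression pathway did not all share the pattern of low values on array 1. The 12 measured genes of mitochondrial DNA maintenance, transcription and RNA processing, of 19 listed, had medians of -0.1465 and 0.08 on arrays 1 and 2. Lowest were rswl, at -0.135 and -0.18, and the mitochondrial DNA polymerase gene PolG1, at -0.194 and -0.038. The nuclease gene PNPase was next to highest, at -0.153 and 0.232. The highest was mTerf3, a member of the mitochondrial termination factor family, at 1.278 and 0.48. Its mean of 0.879 ± 0.564 (SD, n = 2) ranked 5th from the top among the 10912 probes, with a 95% interval of 0.382 to 1.376 and a limma adjusted p of 0.422.

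Of 9 listed translation factors 7 were measured, with medians of 0.062 and 0.017. The elongation factors mEFTu1 (-0.113 and 0.037) and mEFTs (-0.128 and 0.054) were lowest by mean and lay on the sides of most ribosomal proteins. The initiation factor mIF2 (0.062 and 0.132) and the elongation factor mEFTu2 (0.199 and -0.005) were highest. Of 16 mitochondrial aminoacyl-tRNA synthetases, the enzymes that load the tRNAs, 11 were measured, with medians of 0.046 and -0.082. GluRS-m (-0.057 and -0.114) and AsnRS-m (-0.071 and -0.061) were lowest, and CysRS-m (0.149 and 0.009) and TyrRS-m (-0.019 and 0.126) highest. Limma called 0 genes of these 3 lists at an adjusted p under 0.05, and at an unadjusted p under 0.05 it counted 1, mTerf3 (0.00565).

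Most complexes of oxidative phosphorylation also hold subunits that mitochondrial ribosomes make. The list of their nuclear genes was drawn by symbol and has 95 entries. It also took in COX1, COX2 and COX3, which mitochondrial DNA encodes and which had no probe tested. The measured genes had medians of -0.08 and 0.014 over 73 probes of 67 genes. Of these probes, 36 were negative on array 1 and positive on array 2, 49.3% beside 26.4% of all probes. Another 21 were negative on both, beside 23.1% of all probes. On array 1, 78.1% were negative, near the 81.2% of the mitochondrial ribosomal protein genes and above the 49.7% of all probes. UQCR-11L (-0.801 and 0.05) and ND-B14 (-0.148 and -0.117) were lowest, and UQCR-14L (0.026 and 0.326) and ND-24L (0.133 and 0.185) highest. Whether UQCR-11L, UQCR-14L, ND-24L and other entries such as COX5BL, SdhCL, ND-20L and Sdhaf3 are part of the complexes was not examined here. The deposited values of the arrays had a Pearson correlation of 0.138 and a Spearman correlation of 0.261 over these probes.

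Cytosolic ribosomal proteins build the ribosomes outside mitochondria. Their list, drawn by symbol, had medians of -0.09 and -0.0345 over 42 probes of 37 genes, of 93 listed. It also took in RpL24-like, RpL7-like and RpLP0-like, whose place in the ribosome was not examined here. Both arrays were negative for 19 of the 42 probes, beside 23.1% of all probes. Another 11, or 26.2%, were negative on array 1 and positive on array 2, beside 26.4% of all probes. On array 1, 71.4% of the 42 were negative, against 49.7% of all probes. RpL37-2 (-0.236 and -0.115) and RpL24-like (-0.21 and -0.112) were lowest, and RpS19b (0.636 and -0.018) and 1 probe of RpL3 (0.619 and -0.117) highest. The other probes of RpL3 had means of -0.0565, 0.0225 and 0.04. The deposited values of the 42 probes had a Pearson correlation of 0.215 and a Spearman correlation of 0.142. Limma called 0 probes of this list and of the oxidative phosphorylation list, and counted 0 of either at an unadjusted p under 0.05. The difference between the cytosolic and the mitochondrial list was not tested.

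Markers of muscle and midgut had wider values, mostly on the same side of both arrays. The 18 muscle probes stood for 14 of 19 listed genes, with 4 probes of SERCA and 2 of Actn. Of these probes, 16 were positive on both arrays, and the medians were 0.3855 and 0.2655. A probe of Actn (0.631 and 0.685) and one of SERCA (0.65 and 0.576) were highest, and another SERCA probe (-0.112 and -0.069) and sls (0.069 and -0.055) lowest. The other Actn probe stood at 0.112 and 0.276. The 17 midgut probes stood for 17 of 20 listed genes, and 12 were negative on both arrays. The midgut medians were -0.555 and -0.379. Values ran from epsilonTry (-1.004 and -0.724) and betaTry (-0.843 and -0.575) to Jon99Cii (-0.11 and 0.172) and Jon99Ci (0.191 and -0.128). Limma counted 10 muscle and 10 midgut probes at an unadjusted p under 0.05, beside 6.69% of all probes, and called 0 after adjustment. With array 2 not turned, limma counted 0 of either list at an unadjusted p under 0.05, beside 4.88% of all probes. The medians of the means were then 0.031 for muscle and -0.065 for midgut.

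The 4 fat body probes had medians of -0.057 and -0.1215 on arrays 1 and 2, with apolpp (-0.497 and -0.234) and Fbp2 (-0.057 and -0.18) lowest and Lsp2 (0.033 and -0.024) and Fbp1 (-0.057 and -0.063) highest. The 7 testis probes had medians of 0.009 and 0.082, with Mst84B (-0.119 and -0.053) and aly (0.009 and -0.145) lowest and Mst77F (0.679 and 0.082) and Mst84Dc (0.275 and 0.123) highest. The table holds ratios and no levels, so these markers do not show how much of each tissue the RNA came from, and fewer cells of a type and less RNA per cell cannot be told apart. The part of such differences in the ribosomal protein values was not tested.

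**Figure D5:**
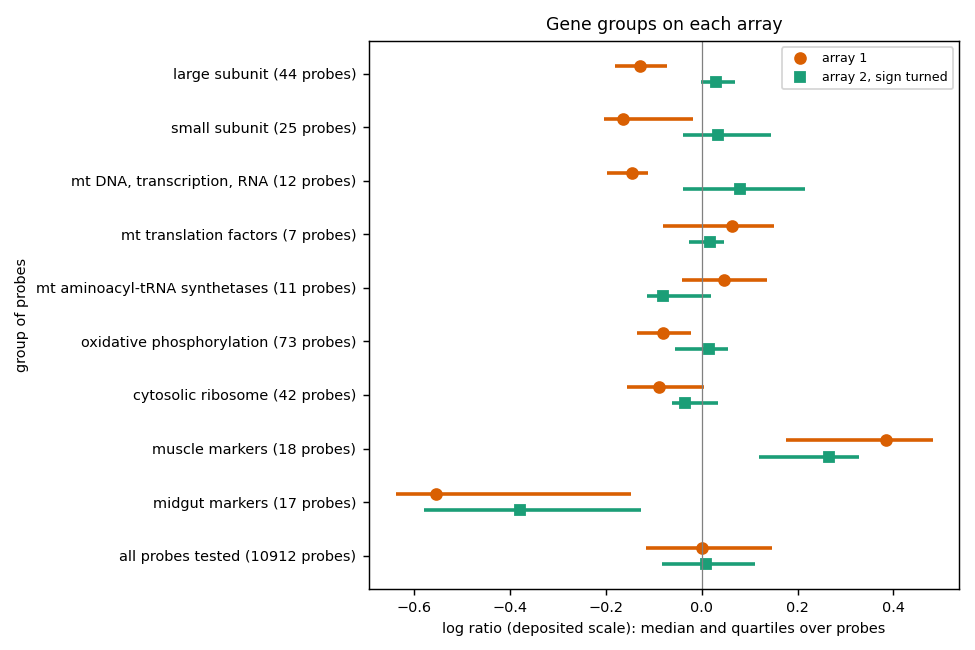
Median (point) and lower to upper quartile (line) of the log ratio on the deposited scale (horizontal axis) for each group of probes (vertical axis), with array 1 as orange circles and array 2, sign turned, as green squares. The subunits of the mitochondrial ribosome lie left of 0 on array 1 and slightly right of 0 on array 2, while muscle markers lie right of 0 and midgut markers left of 0 on both.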

How the data were processed

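The authors deposited 1 log ratio of the 2 channels for each of 15744 probes and array, treated here as a score because its log base is unnamed. The numerator, the normalization, the filter and the scanner are also not given in the sources used here. Empty cells (3996 on array 1, 1450 on array 2) and 7 cells of the code -10000 were treated as missing. Gene symbols came from the platform annotation (13147 probes with 1 symbol, 99 with several, 2498 with none) and were updated through a RefSeq gene table (assembly Release 6 plus ISO1 MT), by gene identifier for 12519 probes and by synonym or locus tag for 552. The current symbol stood already for 36 probes, and 40 kept the annotation's symbol.

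In each of the 24 blocks, 40 unnamed places recur, 960 features in all. These were left out of centring and tests, a decision taken after the data were seen, which left 10912 probes measured on both arrays. Centring subtracted 0.002 from array 1 and 0.01 from array 2 before its sign was turned. The deposited medians were -0.008 and 0.007. Probes were tested against 0 in R 4.3.3 by limma 3.58.1, using lmFit followed by eBayes (two-sided, 1 residual degree of freedom), with Benjamini-Hochberg adjusted p over all probes, and the fit was checked on simulated data. The number of arrays, 2, limits the precision.

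The genes and the lists set beside them were chosen with earlier results of these data known. Genes were named by rule: the 8 highest and 8 lowest means, the 6 widest gaps between arrays, any gene without a value, tko and bonsai, and the 2 highest and 2 lowest of each other list. Others were named by role or block with their values known. A planned search of promoters for motifs was not run, as promoter sequence was not used here. No value column was left unused (0). Alternatives were the reading of direction, the centring, the unnamed features, probes with 1 array, 1 value per gene, each array alone and the subunit of mRpS18A and mRpS30.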

Additional observations from a re-analysis of the deposited data

How the results depend on the processing

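The calls among the ribosomal proteins stayed at 0 under each alternative that allowed a test, by probe and by gene. Counts of sides depended on the reading of direction: with array 2 not turned, 11 genes were positive on both arrays, 44 negative on both and 13 on opposite sides, in place of 2, 11 and 55. Centring within blocks gave 21 genes negative on both. The large minus small difference on array 1 was 0.0085 with that centring, against 0.035, and on array 2 it was 0.0025 and turned in sign, against -0.0045. With array 2 not turned it was 0.0045 there. The median of the means was 0.03 without array 1 and -0.13 without array 2, and between -0.034 and -0.087 under the other settings. Of the 20 genes named by rule, the mean changed sign in 7 with array 2 not turned, in 3 with centring within blocks, in 12 without array 1 and in 5 without array 2, and in 0 under the other settings. Over all genes, in a limma fit with 1 value per gene, 0 of 9062 genes were called. Without centring, with centring on all features and with the unnamed features kept, 1 of 9062 was called in each, and 2 of 11066 were called with probes on 1 array included. No paired analysis was possible because each array is a ratio of both crosses and the arrays form 1 group.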
